A study of Mus musculus with 26 samples.

Results

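The ganglia on the operated side of a sham-operated mouse were compared with those on its other side. The libraries were the 8 of 26 in the series that came from dorsal root ganglia (DRG, which hold the cell bodies of sensory neurons next to the spinal cord) after sham surgery: both sides of 4 mice, 2 of each genotype, with the 2 sides paired by the mouse that the labels name. The series asks what the aryl hydrocarbon receptor (AhR, encoded by *Ahr*, a transcription factor activated by small molecules) does in injured sensory neurons. Mice of the conditional knockout (cKO) group were *Ahr* f/f with *Thy1*-CRE(ERT2/EYFP), in which the promoter of a neuronal gene drives a Cre recombinase that tamoxifen activates, together with a yellow fluorescent reporter. Control mouse 1 was *Ahr* f/+, and control mouse 2 was *Ahr* fl/fl, so each group carried at least 1 floxed allele. All 4 mice are labelled male, and their lumbar ganglia (L4 to L6) were taken 1 day after the sham surgery at zeitgeber time 2 to 4. The labels give neither an age nor tamoxifen for them, and do not say what the sham operation involved. As a reference for an injured nerve, 12 libraries of DRG from naive mice and from mice 1 day after a sciatic nerve crush were used, with 3 mice per genotype in each and tamoxifen at 100 mg/kg for 5 days at 28 weeks of age, 5 weeks before.

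A sensory neuron whose axon is cut or crushed switches on a set of genes within a day, among them the transcription factor ATF3 and growth-associated and neuropeptide genes, and lowers some of the receptors and channels that it uses in health. A sham operation usually opens skin and muscle without touching the nerve itself. The side without surgery is often used as the internal control of such an experiment.

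Sham libraries held 39306414 to 58751270 counts and the reference libraries 20169388 to 23540375, so that sham and crush were set side by side only as differences within each set. The summed level of 10 general neuronal markers was 6530 to 7220 CPM (counts scaled to equal library size) on the other side and 6640 to 7020 CPM on the operated side. The markers *Slc18a3* of motor neurons, *Hand2* of sympathetic neurons and *Opalin* and *Slc32a1* of the central nervous system were at or near 0. The whole lists summed to more: 5 motor neuron markers summed to 211 to 249 CPM on the other and 210 to 231 CPM on the operated side, 6 sympathetic markers to 1.16 to 2.19 and 1.32 to 2.14 CPM, and 8 spinal cord and central glia markers to 18.3 to 19.8 and 19.0 to 24.9 CPM. In a bulk sample, a change in the number of cells of a type and a change of RNA per cell cannot be told apart. The naive mice are labelled female and 2 of the 6 crush libraries male; sex-linked transcripts went against the label in 2 crush libraries, so sex and injury are partly mixed in the crush reference. Nothing in the labels ties the 4 mice to separate litters. In the sham libraries alone, p-values measure the spread of the side difference between these 4 animals.

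The promoter sequences of 4 genes that carry the results are shown first. *Gal* (a neuropeptide) passed the test in the cKO mice. *Sprr1a* (a protein that promotes axon growth) was among the genes with the steepest difference. *Sst* (somatostatin) had the smallest p of the named genes that were lower on the operated side. *Ifit1* is on the list of interferon-stimulated genes, none of which passed, and its side difference was largest in a single mouse. Each window holds the 250 bases before the gene's start in RefSeq's annotation of GRCm38.p6, read 5′ to 3′ on the gene's strand. Capitals mark matches, on either strand, to an AP-1 motif (TGANTCA, bound by Fos and Jun family factors and ATF3 partners), a cyclic AMP response element (CRE, TGACGTCA) or an interferon-stimulated response element (ISRE, a pair of GAAA blocks with any 2 bases between them). None of the 3 motifs matched in the *Gal* window.
Gal, chr19:3414545-3414794, minus strand: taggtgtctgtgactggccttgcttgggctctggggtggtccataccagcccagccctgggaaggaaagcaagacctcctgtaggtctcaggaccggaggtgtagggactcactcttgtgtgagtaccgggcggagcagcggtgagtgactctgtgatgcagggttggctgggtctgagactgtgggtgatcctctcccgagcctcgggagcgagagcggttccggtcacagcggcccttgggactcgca
Sprr1a, chr3:92485882-92486131, minus strand: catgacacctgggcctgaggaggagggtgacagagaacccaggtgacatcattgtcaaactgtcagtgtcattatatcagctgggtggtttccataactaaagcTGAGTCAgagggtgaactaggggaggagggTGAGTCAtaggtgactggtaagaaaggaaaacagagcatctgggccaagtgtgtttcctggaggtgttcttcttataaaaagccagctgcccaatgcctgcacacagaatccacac
Sst, chr16:23890845-23891094, minus strand: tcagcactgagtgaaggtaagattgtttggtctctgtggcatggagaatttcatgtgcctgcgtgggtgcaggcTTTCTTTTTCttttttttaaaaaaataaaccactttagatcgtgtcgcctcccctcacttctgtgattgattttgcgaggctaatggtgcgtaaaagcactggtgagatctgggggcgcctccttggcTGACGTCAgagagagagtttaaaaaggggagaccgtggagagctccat
Ifit1, chr19:34640639-34640888, plus strand: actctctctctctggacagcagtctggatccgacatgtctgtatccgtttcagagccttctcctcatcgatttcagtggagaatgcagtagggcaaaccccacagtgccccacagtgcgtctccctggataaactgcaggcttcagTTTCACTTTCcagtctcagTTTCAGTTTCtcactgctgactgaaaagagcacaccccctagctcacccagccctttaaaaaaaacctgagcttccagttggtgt

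Among 27025 genes with such a window, 7.82% held the AP-1 letters, 1.77% the CRE and 3.46% the ISRE. Of the 14 injury effector genes with a window, 3 (21.4%) held AP-1, namely *Sprr1a*, *Plaur* and *Bdnf*, and 3 (21.4%) held the ISRE. AP-1 was in 0 of 9 injury transcription factors and in 1 of 12 (8.33%) of the named higher genes with a window. Of the 7 interferon-stimulated genes with a window, 5 (71.4%) held the ISRE. The *Sst* window held the CRE 48 bases before the start, and an ISRE match in a run of thymines. A match describes the letters only, and where there was none, only this window was searched.

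On the operated side, genes of the neuronal injury response such as *Atf3*, *Sprr1a*, *Ecel1* and *Gal* were at higher levels than on the other side of the same mouse, by 2.44-fold to 8.28-fold for these 4, and most genes that passed a test were higher. In the paired test of the 8 sham libraries alone (edgeR's quasi-likelihood test with the mouse as a block and Benjamini-Hochberg adjustment), 0 of 22160 genes passed an adjusted p of 0.05, while 1964 (8.86%) had an unadjusted p under 0.05. DESeq2 on the same design called 224 genes, 177 of them higher. When the 12 naive and crush libraries joined the fit to estimate the spread between replicates, 135 genes (0.607%) passed: 124 rose (0.557% of the genes tested) and 11 fell (0.0494%) on the operated side. That fit takes the spread between naive and crush mice to be like that of the side difference in sham mice, which was not tested. Below, "rose" and "fell" refer to this fit with the pooled spread, and fold changes come from the sham libraries alone. Of the 124 and 11 genes, 2 and 3 were too low for the filter in the sham libraries alone and were tested only because the naive or crush libraries joined. Further genes among the 124, such as *Gm5152*, *Adm2* and *Foxa1*, had means of 0, 0.0268 and 0.00882 CPM on the other side. They passed the filter through libraries where they were high, so their calls support nothing, although the 124 include them. When a mouse was left out, 59 genes rose (control mouse 2 out), 64 (cKO mouse 2 out), 100 (control mouse 1 out) or 152 (cKO mouse 1 out). The number that fell was 63 without cKO mouse 2 and 11 to 15 without any other mouse. Of the 11, 8 still fell without cKO mouse 1, 4 without cKO mouse 2, 5 without control mouse 1 and 2 without control mouse 2. Of the 124, 99 still rose without cKO mouse 1, 58 without cKO mouse 2, 75 without control mouse 1 and 57 without control mouse 2.

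Counted without a test, 2128 genes (9.6%) were higher on the operated side in 4 of 4 mice and 1628 (7.35%) lower. In 650 genes (2.93%) every operated library lay above every library of the other side, and in 292 (1.32%) below. The 15 genes with the smallest p in each direction were chosen by a rule of at least 1 CPM and the same sign in 4 of 4 mice. Of the 15 that were higher, 14 rose with the pooled spread, the exception being *Lgals3* (galectin-3). The 14 include *Fgf3*, which passed the filter of that fit through libraries where it was high, so its call supports nothing. Of the 15 that were lower, 4 fell: *Adcy1* (an adenylyl cyclase), *Prmt8* (an arginine methyltransferase of neurons), *Agtr1a* (an angiotensin II receptor) and *Prex1* (a Rac activator).

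The injury transcription factors were led by *Atf3*, the stress-induced factor that marks axotomized neurons. Its level was 11.9 CPM on the other side and 125 CPM on the operated side of control mouse 1, and 11.5 and 82.4 CPM in control mouse 2. In cKO mouse 1 it was 12.3 and 42.3 CPM, and in cKO mouse 2 it was 10.2 and 180 CPM. The sides did not overlap: the 4 other sides were nearly equal, the 4 operated sides were spread widely, and cKO mouse 1 was the lowest of them. *Atf3* rose by 3.05 ± 0.36 on the log2 scale (SE, n = 4 mice; 8.28-fold; edgeR adjusted p 0.122 in the sham libraries alone and 0.00012 with the pooled spread). *Sox11*, a factor of axon regeneration, was at 6.97, 6.31, 8.30 and 6.51 CPM on the other side of control mice 1 and 2 and cKO mice 1 and 2, and at 16.2, 13.9, 11.1 and 21.9 CPM on the operated side. Its sides did not overlap either, and cKO mouse 1 was again the lowest; it rose by 1.13 ± 0.20. These were the only factors of the 11 on the list that rose, 2 of 11 against 0.557% of all genes.

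*Jun*, the AP-1 subunit that pairs with ATF3, was at 108, 103, 103 and 100 CPM on the other side and 159, 149, 105 and 170 CPM on the operated side, in the same order of mice. It was higher in 3 mice by a wide margin and almost equal in cKO mouse 1, and it missed the threshold (log2 0.47 ± 0.11, adjusted p 0.32, and 0.0594 with the pooled spread). In all, 9 of the 11 factors were higher in 4 of 4 mice, against 9.6% of all genes. The median of the list was 0.29 on the log2 scale, against 0.006 over all genes. All lists were chosen with earlier results of these data known. *Stat3*, which relays cytokine signals, differed by 0.10 ± 0.05 and *Atf5* by 0.07 ± 0.06.

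Injury effector genes of neurons, which encode growth, guidance and signalling proteins of the damaged cell, gave the longest list. Of 23 tested members, 15 rose and none fell, while 0.557% of all genes rose. *Sprr1a*, whose promoter with 2 AP-1 matches is printed above, was at 0.30, 1.59, 0.433 and 1.56 CPM on the other side and 6.27, 5.55, 3.83 and 8.06 CPM on the operated side. The sides did not overlap (log2 2.80 ± 0.39). *Ecel1*, an endopeptidase of injured neurons, was at 1.04, 1.01, 0.794 and 0.944 CPM and then 6.34, 4.24, 4.43 and 7.97 CPM. It had the smallest p of all genes, the sides did not overlap, and cKO mouse 1 was level with control mouse 2 on the operated side (log2 2.55 ± 0.18, adjusted p 0.0593 in the sham libraries alone). *Gpr151*, an orphan receptor of injured neurons, went from 1.36, 1.72, 1.42 and 1.84 CPM to 10.3, 7.40, 3.17 and 14.8 CPM. Here cKO mouse 1 stood well below the others on the operated side, as with *Atf3*.

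The steepest difference among the 30 named genes was that of *Fgf3*, a fibroblast growth factor, with 0.176, 0.373, 0.144 and 0.459 CPM on the other side and 6.82, 3.72, 2.18 and 6.36 CPM on the operated side (log2 4.03 ± 0.31, adjusted p 0.0604). Its other sides were close to the limit of detection and its operated sides were not. With the pooled spread it passed the filter on low counts through libraries where it was high, so that call supports nothing. *Fgf3* is not on the effector list. *Vgf*, the precursor of several secreted peptides, was abundant on both sides, with 170, 152, 208 and 143 CPM and then 295, 304, 252 and 325 CPM. Other members that rose included *Gadd45a* and *Fst* (stress and activin regulators), *Csf1* (the growth factor that recruits microglia and macrophages), *Bdnf* (a neurotrophin), *Sema6a*, *Stmn4*, *Steap1*, *Plaur*, *Flrt3* and *Timp1*, with log2 differences of 0.65 for *Bdnf* to 1.86 for *Timp1*. *Flrt3* and *Timp1* share their position with a gene that has 673% and 13300% of their own counts. Reads there appear to have been counted for both, which leaves their values uncertain. *Gap43* (log2 0.15 ± 0.07), *Nefl* (−0.08 ± 0.07) and *Ngfr* (0.07 ± 0.06) were among the 8 that did not pass.

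**Figure D1:**
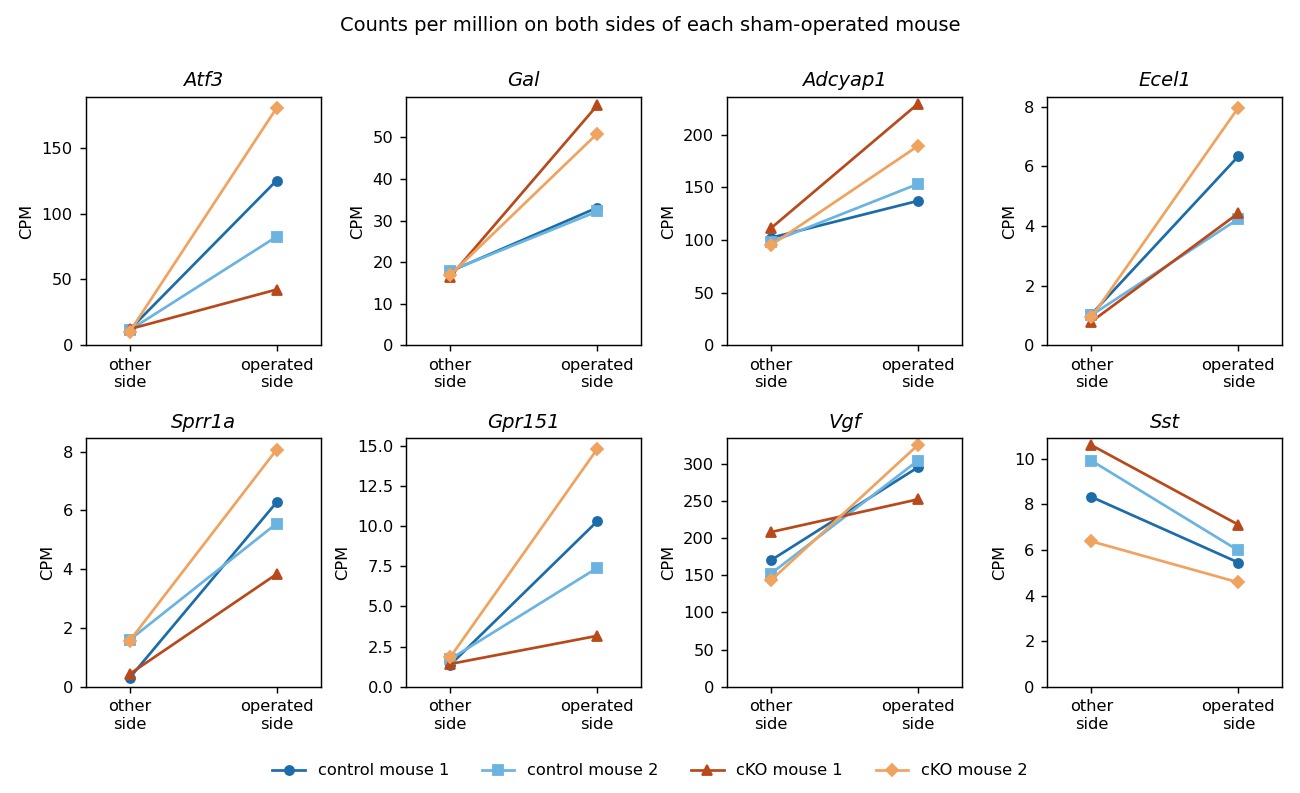
CPM (vertical axes, linear from 0) of 8 genes on the other and the operated side, with a line for each of the 4 mice and no averaging. The lines of *Atf3* and *Gpr151* are flattest in cKO mouse 1, those of *Gal* and *Adcyap1* are steepest in the 2 cKO mice, and *Sst* is lower on the operated side of each mouse.

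Outside these lists, the rule named further genes that rose: *Xdh* (xanthine dehydrogenase, 0.85 ± 0.07), *Galnt6* (a glycosyltransferase, 1.17 ± 0.12), *Fosl2* (an AP-1 subunit, 0.75 ± 0.08), *Smim3* (1.10 ± 0.12), *Pkib* (an inhibitor of protein kinase A, 0.56 ± 0.06), *Rin1* (a Ras effector, 1.72 ± 0.19), *Camk1* (a calcium-dependent kinase, 0.71 ± 0.08), *Procr* (the protein C receptor, 1.16 ± 0.14) and *Crybg1* (0.74 ± 0.09), all log2 with SE. *Angptl2* (0.86 ± 0.07) overlaps a gene with 222% of its counts. *Fosl2* was at 19.3, 14.4, 20.1 and 16.4 CPM on the other side and 31.2, 24.8, 29.3 and 32.4 CPM on the operated side. It was the only 1 of 15 immediate early genes that rose, against 0.557% of all genes. *Fos* (0.17 ± 0.08) and *Egr1* (0.16 ± 0.13) did not pass, and the median of the list was 0.18.

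Among 8 injury neuropeptide genes, 7 could be tested with the pooled spread. Of these, 3 passed upward, against 0.557% of all genes: *Gal*, *Adcyap1* and, at very low counts, *Crh*, which is set aside below. *Gal*, which encodes galanin, was at 17.8, 17.9, 16.5 and 16.9 CPM on the other side of control mice 1 and 2 and cKO mice 1 and 2, and at 33.1, 32.2, 57.7 and 50.9 CPM on the operated side. *Adcyap1*, which encodes the peptide PACAP, was at 102, 97.9, 111 and 94.9 CPM and then 137, 153, 229 and 189 CPM. For both genes the sides did not overlap and the 2 cKO mice were the highest on the operated side, which places cKO mouse 1 at the top, not at the bottom as for *Atf3* and *Gpr151*. Over the 4 mice, the differences were 1.28 ± 0.17 for *Gal* and 0.78 ± 0.11 for *Adcyap1* (log2). *Crh*, corticotropin-releasing hormone, lay at 0.0963 to 0.153 CPM on the other side and 0.247 to 0.956 CPM on the operated side, again lowest in cKO mouse 1. All its other sides lay below the level of the filter on low counts, which it passed through libraries where it was high, so its call supports nothing. *Npy* (1.33 ± 0.34, adjusted p 0.362) and *Nts* (0.17 ± 0.13) did not pass.

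Among the named genes, those that were lower on the operated side mostly differed by less than those that were higher. Of all genes called with the pooled spread, the median difference was −0.535 over the 8 that fell and 0.94 over the 122 that rose and were tested in the sham libraries alone. *Sst* was at 8.33, 9.92, 10.6 and 6.38 CPM on the other side and 5.45, 5.98, 7.11 and 4.58 CPM on the operated side. It was lower in each mouse, although the sides overlap between mice, and it missed the threshold in both fits (log2 −0.60 ± 0.08, adjusted p 0.122 and 0.0563). *Agtr1a*, which fell, was at 17.8, 21.2, 22.4 and 17.2 CPM and then 13.1, 14.7, 12.6 and 13.6 CPM, without overlap (log2 −0.54 ± 0.09). *Adcy1* (−0.36 ± 0.05), *Prmt8* (−0.37 ± 0.05) and *Prex1* (−0.25 ± 0.04) fell by less. Values that did not pass included *Cpne3* (−0.28 ± 0.04), the cation channel *Trpc6* (−0.30 ± 0.06), *Siah3* (−0.44 ± 0.08), *Syt6* (−0.35 ± 0.06), *Hal* (−0.31 ± 0.06) and the imprinted gene *Dlk1* (−0.996 ± 0.175). *Pmp2* and *Mab21l1* overlap genes with 100% and 1800% of their counts.

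Lists of ion channels and receptors that set the excitability of sensory neurons had medians below 0 and none far from it. None of the 11 voltage-gated sodium channels, 15 transduction channels, 16 potassium channels or 5 opioid and cannabinoid receptors passed in either fit. Their list medians were −0.10, −0.01, −0.11 and −0.17 on the log2 scale. Of the potassium channels on the list, 3 were lower in 4 of 4 mice, as were 2 of the 5 opioid and cannabinoid receptors, which compares with 7.35% of all genes. After crush, 11 of these 16 channels and 4 of the 5 receptors were called lower, against 14.9% of all genes. *Oprd1*, the delta opioid receptor, differed by −0.20 ± 0.08 between the sides of sham mice and by −0.85 after crush, and its sham effect was above its crush effect (adjusted p 0.0104).

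The 21187 genes tested in both settings were grouped by their crush effect, a contrast of naive and crush libraries only, although its spread was estimated together with the sham libraries. The crush called 7262 of 22254 genes (32.6%; 41.7% at an unadjusted p under 0.05), 3943 higher (17.7%) and 3319 lower (14.9%). The 123 genes that the crush raised at least 4-fold had a median crush effect of 2.78 and a median sham effect of 1.17 on the log2 scale. In the 4 mice that sham median was 1.14, 1.11, 0.62 and 1.58 (control mice 1 and 2, cKO mice 1 and 2), and 96 of the 123 genes (78.0%) were higher on the operated side in 4 of 4 mice, against 9.72% of all genes tested in both. The 319 genes raised 2-fold to 4-fold by the crush had a sham median of 0.37, and 3385 genes raised by less had 0.05.

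Genes lowered by the crush differed less between the sham sides. The 3138 genes lowered by under 2-fold had a crush median of −0.32 and a sham median of −0.06, which was below 0 in each of the 4 mice (−0.04, −0.09, −0.03 and −0.08), and 681 of them (21.7%) were lower in 4 of 4 mice against 7.43% of all genes tested in both. For 158 genes lowered at least 2-fold by the crush, with a median of −1.27, the sham median was −0.08, and it was −0.04, −0.43, 0.23 and −0.10 in the single mice, so its sign was not the same in all 4, and 22 of them (13.9%) were lower in 4 of 4 mice. Across genes, sham and crush effects correlated with a Pearson r of 0.456 and a Spearman rho of 0.291 over 21187 genes, which are not independent of each other. Mouse by mouse, r was 0.311, 0.321, 0.0332 and 0.249, and cKO mouse 1 was the lowest. These values describe the libraries and carry no test.

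The difference between the sham and the crush effect was tested gene by gene: 2221 of 22254 genes passed (9.98%), with the sham effect below the crush effect in 1437 (6.46%) and above it in 784 (3.52%). Without sham cKO mouse 1 the number was 1251. Of the 124 genes that rose, 117 were also called higher in crush and 0 lower. Over the 122 of them tested in the sham libraries alone, the median was 0.94 in sham and 1.85 in crush. For 74 of the 124 the sham effect was smaller than the crush effect by the test, and for 5 it was larger. Of the 11 genes that fell, 5 were also called lower in crush and 6 were not called. For 5 of the 11 the sham effect was the larger one by the test, and for 0 the smaller one. The 2 effects have unlike baselines: the other side of the same male mouse in sham, and separate naive mice labelled female in crush. The part of this in their differences was not tested. Among the effector list, 18 of 23 genes had a smaller sham effect, and the 5 without that call were *Ecel1*, *Nefl*, *Ngfr*, *Inhbb* and *Timp1*. *Ecel1* was raised by 3.28 ± 0.33 after crush, and its sham minus crush difference was −0.74 ± 0.48 (adjusted p 0.377). *Atf3* was raised by 5.62 ± 0.24 after crush, from 10.6 to 16.6 CPM in naive and 503 to 740 CPM in crush libraries, and the difference of −2.58 ± 0.34 passed (adjusted p 0.000321).

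The genes with the smallest p for a sham effect below the crush effect, by the rule, were *Zfp367*, *Itpr1* (a calcium release channel), *Ugdh*, *Smim3*, *Crem* (a cyclic AMP-responsive factor), *Chmp1b*, *Itpkc*, *Heca*, *Jun* and *Rasef*. *Itpr1* was raised by 1.65 after crush and differed by 0.24 ± 0.08 between the sides of sham mice; *Zfp367* by 1.57 and 0.18. Those with a sham effect above the crush effect were *Nog* (a BMP antagonist), *Fam69b*, *Fndc5*, *Paqr7*, *Pik3r2*, *Cd83*, *Vstm2l*, *Klhdc8b*, *Mrgpra3* (an itch receptor) and *Lingo3*. Each was lowered after crush, by 0.96 for *Mrgpra3* and 1.23 for *Lingo3*, while their sham differences were −0.10 and 0.04. The counts of *Ugdh*, *Chmp1b* and *Itpkc* are uncertain, since a gene at the same position holds 310%, 3220% and 134% of them.

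**Figure D2:**
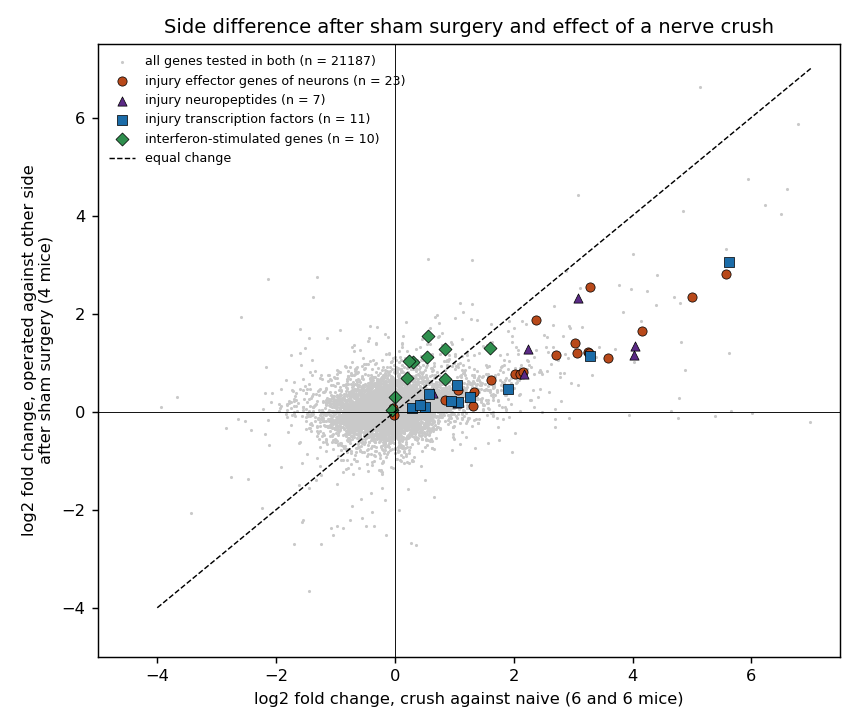
Log2 fold change of the operated against the other side after sham surgery (vertical, 4 mice) and of crush against naive (horizontal, 6 and 6 mice), 1 point per gene for 21187 genes, with 4 lists marked. Most injury effector, neuropeptide and transcription factor genes lie to the right of 0 and below the dashed line of equal change, while several interferon-stimulated genes lie above it.

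In the Jak-Stat and Socs list, *Socs1* (0.86 ± 0.14) and *Cish* (0.65 ± 0.12) rose; both encode feedback inhibitors of cytokine receptors. *Socs3* was at 19.7, 15.7, 18.5 and 17.1 CPM and then 29.0, 35.6, 22.3 and 36.6 CPM, without overlap, and narrowly missed with the pooled spread (0.78 ± 0.16, adjusted p 0.0604). None of the 12 gp130 cytokine and receptor genes, 13 integrated stress response genes, 10 glucocorticoid-induced genes, 17 clock genes, 12 cholesterol synthesis genes or 14 complement genes passed in either fit. Their medians lay between −0.01 and 0.20. Of the 15 acute phase and neutrophil-recruiting genes tested, *Serpina3n*, a protease inhibitor secreted after injury, was the 1 that rose, against 0.557% of all genes. It was at 285, 239, 278 and 239 CPM and then 353, 333, 331 and 340 CPM (0.39 ± 0.05).

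*Ahr* itself was at 14.1, 13.0, 14.3 and 13.9 CPM on the other side and 14.8, 18.5, 16.5 and 17.5 CPM on the operated side. It was higher in 4 of 4 mice without overlap, by 0.28 ± 0.08 on the log2 scale, and did not pass (adjusted p 0.442, and 0.233 with the pooled spread). After crush it was raised by 0.72 ± 0.07, more than in sham mice (adjusted p of the difference 0.0209). The counts cover the whole gene and not the floxed stretch alone, and its level did not separate cKO from control libraries, and the side effect differed between genotypes by −0.02 ± 0.18. The 6 AhR targets tested had a median of 0.001 and none passed. *Thy1*, whose promoter drives the Cre, was higher in the cKO mice on both sides (1210 to 1450 CPM against 807 to 897 CPM).

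The side effect was then fitted within each genotype, with 2 mice in each. In the control mice 0 genes passed (1030, 4.65%, at an unadjusted p under 0.05; DESeq2 called 50). In the cKO mice 3 genes passed, all higher (0.0135%; 2493, 11.2%, at an unadjusted p under 0.05; DESeq2 called 163): *Gal* (log2 1.70 ± 0.08), *Chrna3* (2.01 ± 0.11) and *Adcyap1* (1.02 ± 0.07), with adjusted p of 0.0163, 0.0163 and 0.0493. Without the mouse as a block only *Gal* remained, and on the deposited FPKM 0 genes passed. In the control mice the same genes differed by 0.87 ± 0.08, 0.08 ± 0.10 and 0.53 ± 0.07. The test of the difference between genotypes called 0 genes (1294, 5.84%, at an unadjusted p under 0.05; DESeq2 called 24), with an adjusted p of 0.608 for *Gal* and 0.783 for *Adcyap1*. That count was 173 without cKO mouse 1 and 65 without cKO mouse 2, when a single cKO mouse is assumed to vary like the rest.

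*Chrna3*, a nicotinic acetylcholine receptor subunit of autonomic and some visceral sensory neurons, was at 16.3 and 15.8 CPM on the other and operated side of control mouse 1, and at 7.69 and 8.94 CPM in control mouse 2. In cKO mouse 1 it was at 17.2 and 73.8 CPM, and in cKO mouse 2 at 7.04 and 26.3 CPM. Only the operated sides of the 2 cKO mice stood out, and the other sides fell into a higher pair (the mice numbered 1) and a lower pair (those numbered 2) in both genotypes. The genotype difference was 1.92 ± 0.15 (adjusted p 0.233). *Chrnb4*, its partner subunit in the same receptor cluster, followed the same pattern with 8.66 and 6.82, 5.02 and 3.72, 8.93 and 34.6, and 5.13 and 14.6 CPM (genotype difference 2.12 ± 0.19, adjusted p 0.243). *Penk*, the precursor of the enkephalins, was at 24.1 and 26.1, 10.7 and 11.6, 19.2 and 74.8, and 15.8 and 34.7 CPM. *Chrna5*, of the same cluster, was low: it lay at 0.128 to 0.247 CPM on the other side and 0.556 to 0.786 CPM on the operated side, higher in all 4 mice. It passed the test, but like *Crh* and *Fgf3* it passed the filter on low counts through libraries where it was high, so that call supports nothing.

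Hox genes record the segment from which a ganglion comes, and the posterior members *Hoxc11*, *Hoxd10* and *Hoxd11* mark lower lumbar and sacral levels. *Hoxc11* was at 3.56 and 3.69 CPM (other and operated side) in control mouse 1, 0.112 and 1.25 CPM in control mouse 2, 3.11 and 17.5 CPM in cKO mouse 1, and 0.817 and 5.73 CPM in cKO mouse 2. *Hoxd10* was at 7.91 and 7.54, 0.243 and 2.99, 9.27 and 25.3, and 3.37 and 12.7 CPM, and *Hoxd11* at 8.86 and 6.70, 0.243 and 4.22, 8.52 and 25.0, and 1.99 and 11.7 CPM. Like *Chrna3*, they were highest on the operated side of cKO mouse 1 and next on that of cKO mouse 2, and level or lower on the operated side of control mouse 1. Unlike *Chrna3*, which was nearly level there, they were also far higher on the operated than on the other side of control mouse 2. Of the whole list of 14 Hox genes, 12 were tested and none passed. Of these 12, 3 were higher in 4 of 4 mice, against 9.6% of all genes. The summed level of the 14 was 159 to 188 CPM on the other side and 177 to 245 CPM on the operated side. *Hoxa9* differed by −0.06 ± 0.05 and *Hoxd9* by 0.17 ± 0.08. The labels give L4 to L6 for both sides, and whether each library held the same ganglia was not tested. The part that these segment markers have in the differences of *Chrna3*, *Chrnb4*, *Penk*, *Gal* and *Adcyap1* was not tested.

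The median of the acute phase list was −0.26 and 0.30 in control mice 1 and 2 and 1.09 and 0.51 in cKO mice 1 and 2, higher in the cKO mice but with the same sign in control mouse 2. Of its members and the complement list, 3 genes with opposite signs in the genotypes are given, chosen after their values were seen. *Hp*, haptoglobin, was at 21.6 and 13.5 CPM on the other and operated side of control mouse 1 and 15.2 and 8.34 CPM in control mouse 2, but at 19.7 and 47.4 CPM in cKO mouse 1 and 13.1 and 25.3 CPM in cKO mouse 2. *C3* (complement component 3) was at 22.8 and 12.2, 13.5 and 8.94, 18.3 and 32, and 15.4 and 20.4 CPM. *Lcn2*, lipocalin 2, was at 43.7 and 42.0, 40.0 and 25.6, 54.2 and 128, and 38.9 and 51.5 CPM. In all 3 genes the operated side was the lower one in both control mice and the higher one in both cKO mice, a sign pattern that 6.93% of all genes shared, while 5.33% had the reverse one. The genotype differences were 1.88 ± 0.16, 1.36 ± 0.19 and 1.17 ± 0.31, with adjusted p of 0.233, 0.608 and 0.8, so none passed.

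**Figure D3:**
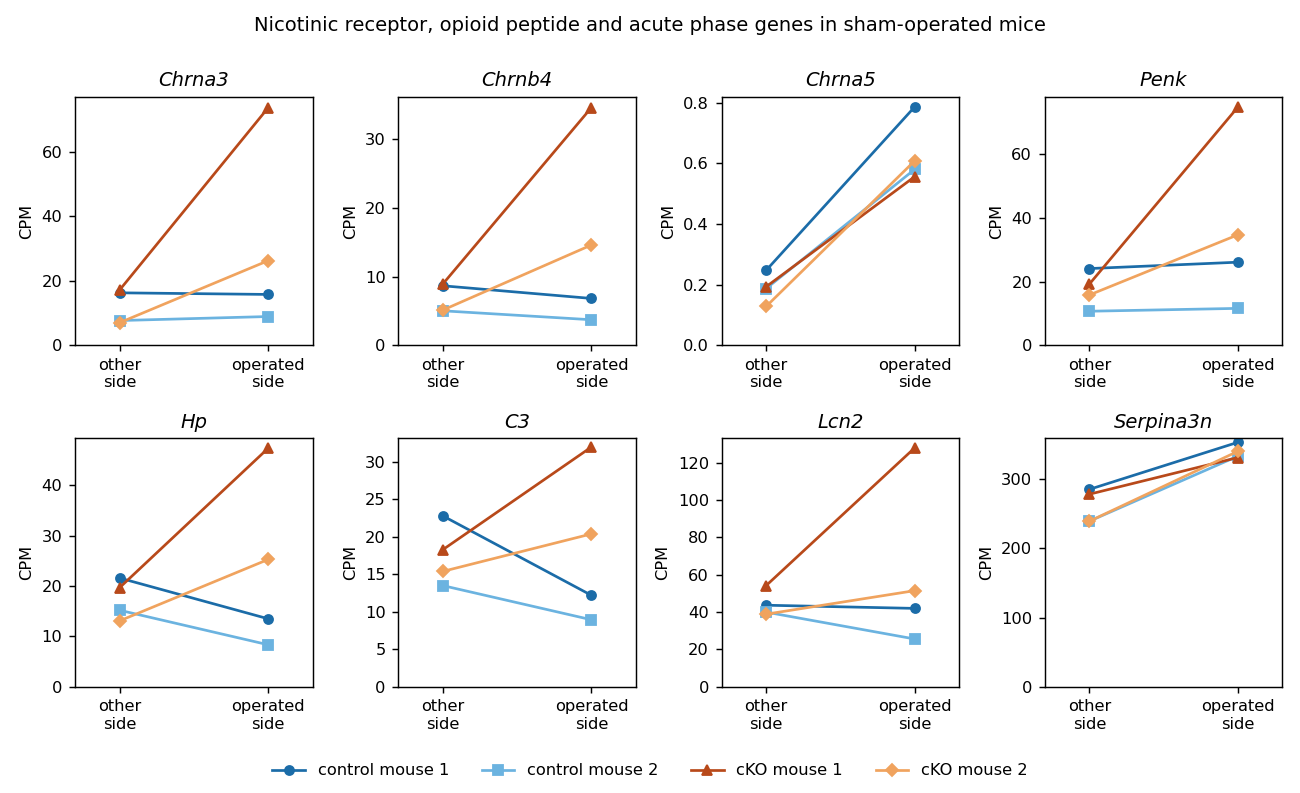
CPM (vertical axes, linear from 0) of 8 genes on the other and the operated side of each mouse, with a line per mouse. The lines of *Chrna3*, *Chrnb4* and *Penk* are steep in the 2 cKO mice and nearly level in the controls, *Hp* and *C3* go in opposite directions, and *Chrna5* and *Serpina3n* are higher on the operated side of each mouse.

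Markers of blood cells and surrounding tissue differed between the same libraries. The summed level of 10 neutrophil markers was 348 and 321 CPM (other and operated side) in control mouse 1, 322 and 217 in control mouse 2, 500 and 980 in cKO mouse 1, and 361 and 435 in cKO mouse 2, the same signs as *Hp* and *Lcn2*. Their part in those genes was not tested. The 5 red blood cell markers summed to 245 to 866 CPM on the other side and 512 to 721 CPM on the operated side, and the 10 macrophage markers to 134 to 150 and 122 to 177 CPM. The 5 adipocyte markers ran from 4.19 to 33.4 CPM on the other side and from 2.96 to 59.6 CPM on the operated side, lower in both control mice and higher in both cKO mice.

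Skeletal muscle RNA differed by orders of magnitude between single libraries. The sum of 7 muscle markers was 81.7 and 21.2 CPM (other and operated side) in control mouse 1, 304 and 4.04 in control mouse 2, 375 and 22.5 in cKO mouse 1, and 25.6 and 2050 in cKO mouse 2. It was thus lower on the operated side of 3 mice and far higher in the fourth, cKO mouse 2, whose operated side was also the highest in *Atf3*, *Ecel1* and *Sprr1a*. The part of muscle RNA in those genes was not tested. Without cKO mouse 2, 64 genes rose, of which 58 were among the 124. Myelinating Schwann cell markers were lower on the operated side in 3 mice and higher in control mouse 2 (log2 ratios of −0.56, 0.34, −0.40 and −0.58). The satellite glia markers did not overlap between the sides (2520 to 2710 CPM and then 2720 to 2830 CPM), the spinal cord list was higher in 4 of 4 mice and the motor neuron list lower in 4 of 4. A test over the 16 swaps of the sides within mice cannot go below a p of 0.125, so none is read from it.

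**Figure D4:**
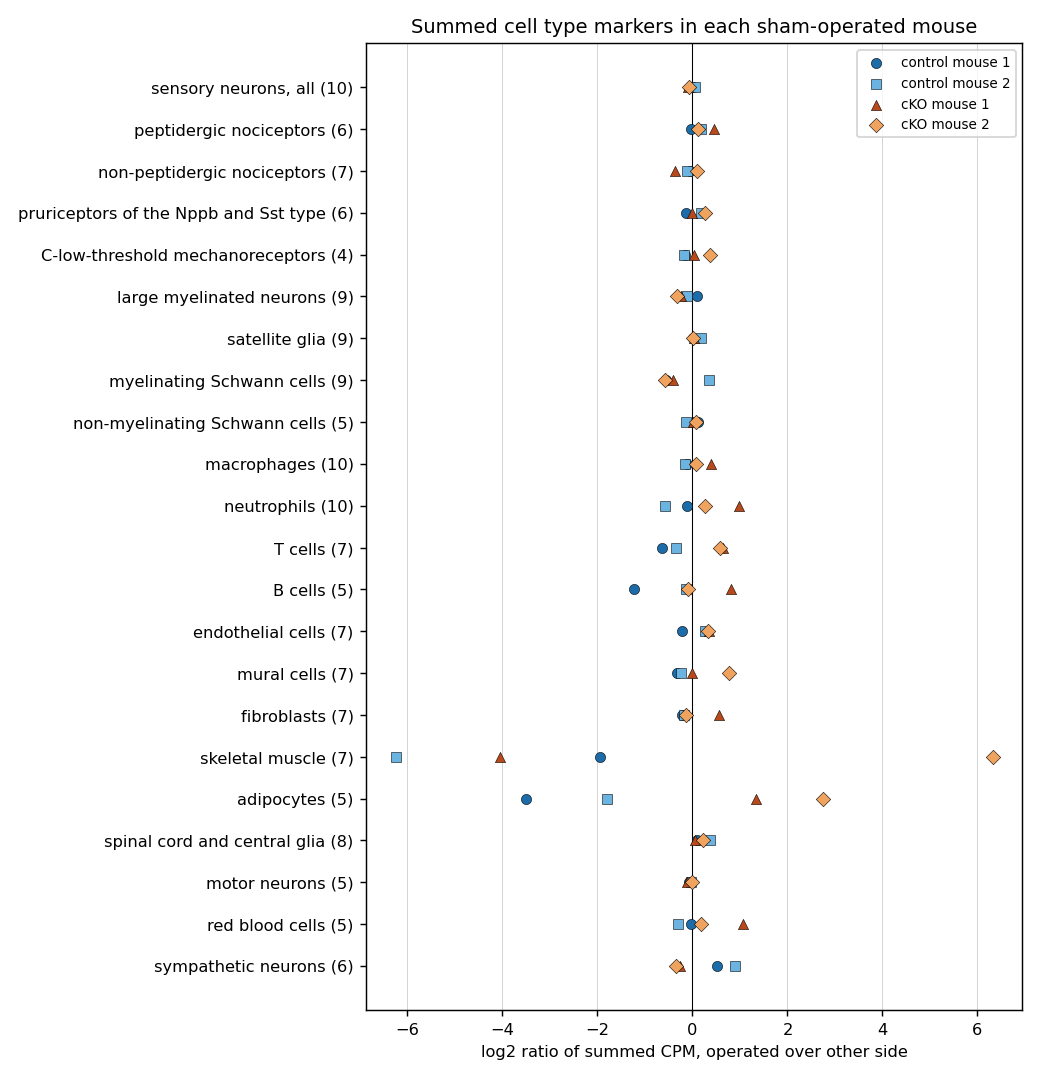
Log2 ratio of summed CPM, operated over other side (horizontal), for 22 lists of cell type markers, with 1 symbol per mouse and the number of genes in brackets. The lists of sensory neuron types lie between −0.36 and 0.46, and skeletal muscle and adipocyte lists spread from −6.24 to 6.32.

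Interferon-stimulated genes had the highest list median (1.03), and control mouse 2 stood apart with a median of 2.60 against 0.62 in control mouse 1, 0.05 in cKO mouse 1 and 0.74 in cKO mouse 2. *Ifit1*, whose promoter with 2 ISRE matches is printed above, was at 17.7, 16.3, 24.8 and 15 CPM on the other side of control mice 1 and 2 and cKO mice 1 and 2, and at 37.4, 126, 16.1 and 49.4 CPM on the operated side. It was higher in 3 mice and lower in cKO mouse 1. *Rsad2*, which encodes the antiviral protein viperin, was at 7.32, 8.46, 4.74 and 7.45 CPM and then 12.7, 74.5, 7.42 and 22.6 CPM. It was higher in each mouse, with control mouse 2 far above the rest. None of the 10 genes passed in either fit, and the median without control mouse 2 was 0.505. The Jak-Stat gene *Stat2*, which relays interferon signals, was at 78.4 and 132 CPM in that mouse.

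**Figure D5:**
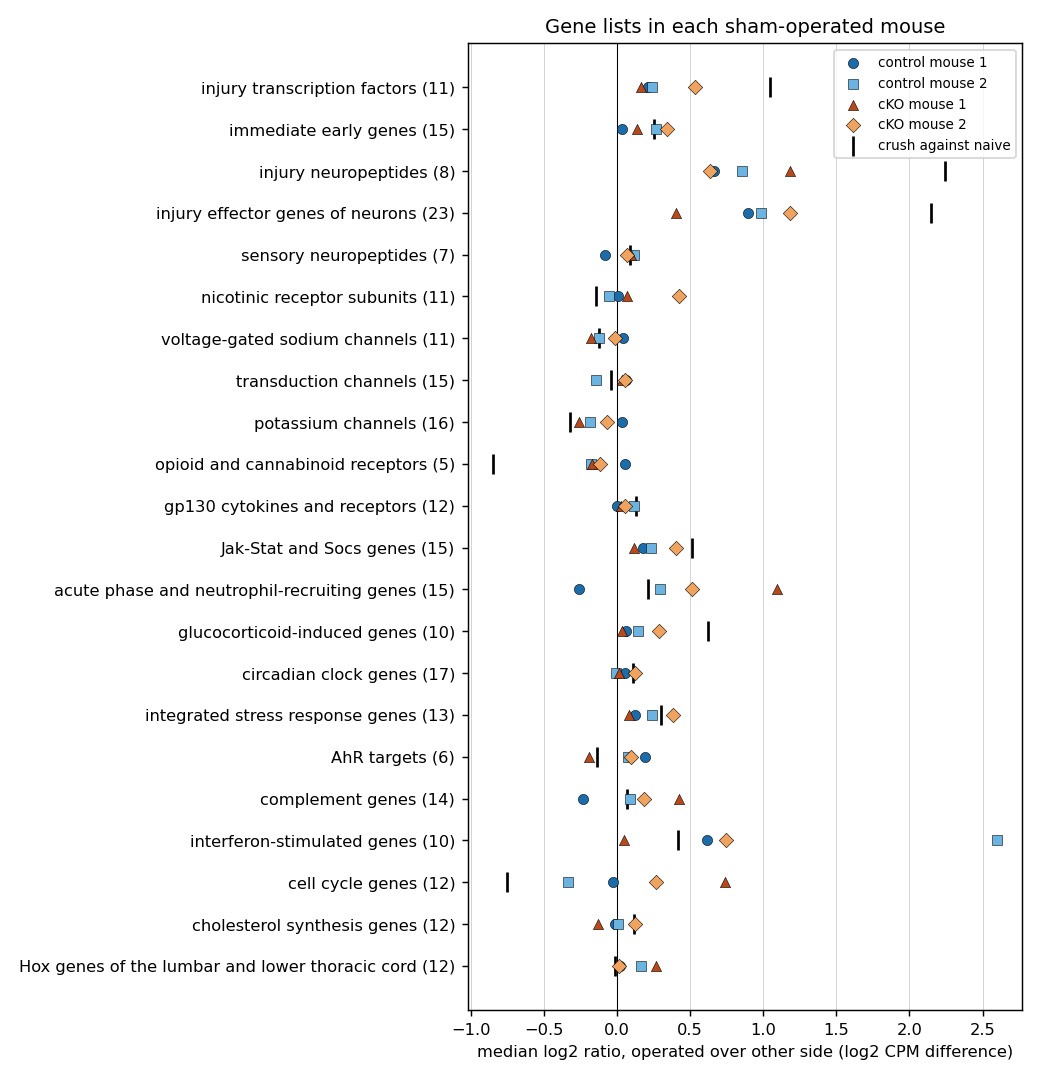
Median log2 ratio of the operated over the other side (horizontal) of 22 gene lists, with 1 symbol per mouse, the crush effect as a vertical bar and the number of genes tested in brackets. Injury effector genes lie at 0.41 to 1.19 in the 4 mice and at 2.15 after crush, and the interferon list is far to the right in control mouse 2 only.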

How the data were processed

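RNA from sham-operated, naive and crushed-nerve ganglia was prepared with the QIAGEN RNeasy Plus Mini kit and sequenced from TruSeq Stranded mRNA libraries, per the labels' protocols. The submitters' processing notes name Trim Galore, HISAT2, featureCounts and the mm10 genome; their versions and the strand setting are not given in the sources used here. The authors deposited raw counts per gene, and FPKM whose implied length was the gene span within 0.1% for 100.0% of genes. Reads in overlapping genes appear to have been counted for both. Of 55401 genes, 55141 (99.53%) were matched to a symbol.

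CPM are counts scaled by TMM-adjusted library sizes. Genes passed filterByExpr (minimum count 10, minimum total 15). The sham libraries were fitted with edgeR 4.0.16 in R 4.3.3 (quasi-likelihood test, two-sided, Benjamini-Hochberg adjusted p under 0.05), with the mouse as a block; the side within genotype, and 1 mean per naive and crush group, were added in further fits. The common biological coefficient of variation was 0.152 with 3 residual degrees of freedom in the sham libraries alone and 0.115 with 11 when naive and crush libraries joined. Each SE was derived from the log2 fold change and its F statistic. Both sides come from 1 animal per the labels; deviations of the paired sides correlated across genes at 0.229 in control and −0.159 in cKO mice. Mouse by mouse ratios are differences of log2 CPM with a prior count of 2.

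Named genes were those called, or, in each direction, 15 chosen by p (mean of at least 1 CPM, same sign in 4 of 4 mice, no clone names, not sex-linked), the 10 in each direction for sham minus crush, and members of fixed lists. The members and lists were chosen with earlier results of these data known. Promoters are RefSeq windows of GRCm38.p6. Alternatives were no block, DESeq2 1.42.0, RLE factors, no filter, at least 10 counts in every library, deposited FPKM as log2(FPKM + 0.1) with limma 3.58.1, adjusted p under 0.1, robust estimation, the spread pooled with naive and crush libraries, and leaving out each mouse. The side averaged over genotypes, the crossed pairing and the leave-outs of the pooled fit were added after seeing the data. Scripts were tested on simulated data. The cultured neurons were not used here. The values of some named genes are not reported here.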

Additional observations from a re-analysis of the deposited data

Results flagged for a closer look

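Of 150 log2 ratios of the sides that were examined over the 4 mice (genes, summed markers and list medians), 8 had 1 mouse far from the other 3, by Dixon's criterion; chance alone gives about 1 in 20. The ratio that stood apart was −0.36 for *Cpne3* and 0.41 for *Gap43* in cKO mouse 1, 0.54 for *Itpkc* in cKO mouse 2 and 0.18 for *Cacna2d1* in control mouse 1. Among marker sums it was 0.17 for satellite glia in control mouse 2, −0.21 for endothelial cells in control mouse 1 and 0.55 for fibroblasts in cKO mouse 1. Among list medians it was −0.14 for the transduction channels in control mouse 2.

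In 19 of the 150, both control mice had one sign and both cKO mice the opposite one. Of all genes tested, 6.93% were lower in both control mice and higher in both cKO mice, and 5.33% were the reverse. The count cannot be judged against these shares, because the 150 were not drawn like all genes. They include genes named for having the same sign in every mouse, which cannot meet this rule. They also include *Hp*, *C3* and *Lcn2*, which were chosen after their values were seen. For genes, the cKO minus control difference of the mean log2 ratios was 1.88 for *Hp*, 1.35 for *C3*, 1.17 for *Lcn2*, 1.58 for *Il1b*, 2.11 for *Chrnb4*, 1.10 for *Chrnb3*, 0.57 for *Egr1*, 0.27 for *Klhdc8b*, −0.20 for *Thy1* and −0.30 for *Nefl*. These genes were tested for a genotype difference with edgeR, and 0 passed after adjustment. For summed markers, the difference was not tested: it was 4.69 for adipocytes, 1.10 for T cells, 0.96 for neutrophils, 0.78 for red blood cells, 0.38 for C-low-threshold mechanoreceptors, 0.37 for macrophages, −0.12 for sensory neurons as a whole and −1.01 for sympathetic neurons, whose summed level was at most 2.19 CPM. The median of the cell cycle genes differed by 0.68, also untested.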

How the results depend on the processing

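With 4 mice and 3 residual degrees of freedom, the count of genes that differed between the sides depended on the settings of the fit, the filter and the threshold. Against 0 in the sham libraries alone, it was 1 with no replicate block, which ignores the pairing by mouse (*Gal*), 1 with at least 10 counts in every library, 4 at an adjusted p under 0.1, 7 with robust estimation, 67 with no filter on low counts, 135 with naive and crush libraries in the fit, 224 with DESeq2, 4 with the side averaged over genotypes and 15 with the cKO sides crossed between mice. Leaving out 1 mouse gave 0 to 4, and 70 to 165 with the pooled spread (70 without control mouse 2). The genotype difference called 24 genes with DESeq2, 3 with robust estimation, 2 with the pooled spread, and 0 to 173 without 1 mouse. For control mice it was 50 with DESeq2 and 1 with no filter. For cKO mice, against 3, it was 1 with no replicate block, 163 with DESeq2, 10 with no filter and 0 on FPKM. Sham against crush gave 3361 at an adjusted p under 0.1 and 1251 to 2455 without 1 library or mouse (1251 without sham cKO mouse 1); crush gave 6350 to 7367. The sham median of genes raised at least 4-fold by crush was 0.607 on FPKM, whose pseudocount shrinks low genes, and 0.977 to 1.302 without 1 mouse. That of genes lowered at least 2-fold was −0.207 to 0.083. The cause of the other shifts was not tested. Over the alternatives, 539 values of 36 named genes kept their direction, 93 of them passing where the sham libraries alone did not.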

Other observations

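Beyond the lists, 7 of the 124 genes that rose with the pooled spread were not called after crush, and among those with a gene name *Cartpt* was the most abundant (chosen after its values were seen). It encodes the neuropeptide CART. It was at 15.1, 8.94, 14.9 and 15.5 CPM on the other side of control mice 1 and 2 and cKO mice 1 and 2, and at 16.7, 15.3, 76.1 and 35.5 CPM on the operated side. The sides overlapped, and the 2 cKO mice were the highest on the operated side, as for *Chrna3* and *Penk*. In that fit it differed by 1.11 between the sides and by 0.08 after crush, both log2. Among the 11 that fell was *Wnt5a*, a secreted Wnt ligand (log2 −0.54 in that fit), which was not called after crush (0.19). It was at 19.0, 27.2, 24.3 and 22.4 CPM and then 15.7, 18.2, 12.3 and 18.0 CPM in the same order, without overlap, and was also chosen after its values were seen.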
